A study of Mus musculus with 7 samples.

Results

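Cell cycle and proliferation genes are described here in myeloid cells sorted from mouse lung. The set held 36 genes of DNA replication and mitosis, named by symbol from Mki67 to Stmn1. All 36 were found among the 26130 genes of the count table, and all 36 passed the filter on low counts that left 13665 genes to test. The mice carried 2 fluorescent reporters, Fth1-mScarlet for the ferritin heavy chain gene and Lyz2GFP for lysozyme, so every group shared both alleles. Sorted cells were Lyz2GFP+CD11b+Ly6C+Ly6G-, a gate for monocytes and their descendants that leaves out neutrophils, and were split by low or high Fth1-mScarlet signal. Untreated Fth1-low cells gave 2 libraries. LPS Fth1-low cells (2 libraries) and LPS Fth1-high cells (3 libraries) came from mice given 20 µg of lipopolysaccharide (LPS, from E. coli 0111:B4) in 50 µl into the trachea under isoflurane 3 days earlier. The labels give no age, sex or number of mice behind a library. Untreated cells with high Fth1-mScarlet signal were not analysed here. Because nothing states that replicates are separate animals, a p-value here reflects spread among libraries, and that spread may be technical.

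A cell that divides first licenses its replication origins, by loading the MCM helicase on DNA, and then copies its genome with the sliding clamp Pcna and a supply of deoxynucleotides. Cyclins paired with cyclin-dependent kinases drive it from one phase to the next, mitotic kinases and the spindle checkpoint control the separation of chromosomes, and the anaphase-promoting complex destroys mitotic proteins. Blood monocytes are mostly descendants of dividing progenitors in the bone marrow that have left the cell cycle, whereas some tissue macrophages can divide locally. Many of these genes are transcribed late in the cycle through promoter elements read by the DREAM and MuvB complexes and by the CCAAT-binding factor NF-Y, and others at the G1/S boundary through E2F sites.

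Depth limits what can be said of these genes. Libraries held 637787 to 27997007 counts, and LPS Fth1-low replicate 1 was the shallowest, with the others 16.4 to 43.9 times deeper. In it 3 counts, taken as the detection floor, equalled 5.02 CPM (counts scaled to library size after trimmed-mean normalisation), against 0.106 to 0.280 CPM elsewhere. It held 216 counts over all 36 genes, no count for 8 of them, and a ribosomal RNA share of 18.7%, against 0.631% to 8.33% in the others. Floors cover counting error only, since the reads carry no molecular identifiers. Fth1 itself measured 1786 and 1672 CPM untreated, 2970 and 4825 CPM in LPS Fth1-low and 13231, 21000 and 20473 CPM in LPS Fth1-high libraries, so that every Fth1-high library lay above every other one. In RNA of a sorted population, fewer cells of a type and less RNA per cell cannot be told apart.

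Mki67, Bub1b, Mcm6, Kif23 and Ube2c were the genes of the set called in the comparison of the Fth1 gates after LPS. Their promoters are shown because they come from the late and early classes of cell cycle genes and yet moved in different directions. Each window is RefSeq sequence of GRCm38.p6, from 250 bases before to 50 bases after the gene's start, written 5′ to 3′ on the gene's strand. Capitals mark every match, on either strand, to 3 motifs: the NF-Y box CCAAT, the cell cycle homology region (CHR) TTTGAA or TTCGAA, and the E2F sites TTTGGCGC, TTTCCCGC, TTTGGCGG, TTTCGCGC and TTTCCCGG. Neighbouring matches may overlap and then read as one longer run of capitals.
Mki67, chr7:135716330-135716629, minus strand: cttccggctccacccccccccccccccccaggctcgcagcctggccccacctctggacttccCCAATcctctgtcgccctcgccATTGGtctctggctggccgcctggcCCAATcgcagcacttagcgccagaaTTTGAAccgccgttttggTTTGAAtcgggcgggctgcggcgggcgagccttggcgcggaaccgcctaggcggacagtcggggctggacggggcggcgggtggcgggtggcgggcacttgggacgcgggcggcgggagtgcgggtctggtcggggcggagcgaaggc
Bub1b, chr2:118597961-118598260, plus strand: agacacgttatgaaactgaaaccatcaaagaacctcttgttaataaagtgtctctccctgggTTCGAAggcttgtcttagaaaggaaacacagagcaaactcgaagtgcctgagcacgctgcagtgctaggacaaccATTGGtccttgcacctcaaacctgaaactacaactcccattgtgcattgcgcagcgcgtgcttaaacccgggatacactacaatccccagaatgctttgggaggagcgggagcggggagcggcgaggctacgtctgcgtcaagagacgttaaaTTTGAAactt
Kif23, chr9:61946750-61947049, minus strand: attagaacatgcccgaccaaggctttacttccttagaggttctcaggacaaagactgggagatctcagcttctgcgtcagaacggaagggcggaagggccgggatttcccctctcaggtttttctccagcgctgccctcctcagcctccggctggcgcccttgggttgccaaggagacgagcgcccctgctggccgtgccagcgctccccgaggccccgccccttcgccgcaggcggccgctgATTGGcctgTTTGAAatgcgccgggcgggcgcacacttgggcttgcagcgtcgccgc
Ube2c, chr2:164769679-164769978, plus strand: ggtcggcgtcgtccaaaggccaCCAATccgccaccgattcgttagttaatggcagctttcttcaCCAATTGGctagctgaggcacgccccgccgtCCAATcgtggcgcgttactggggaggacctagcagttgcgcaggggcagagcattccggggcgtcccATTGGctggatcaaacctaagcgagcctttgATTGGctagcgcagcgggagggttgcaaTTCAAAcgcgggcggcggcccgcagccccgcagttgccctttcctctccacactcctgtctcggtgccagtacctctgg
Mcm6, chr1:128359656-128359955, minus strand: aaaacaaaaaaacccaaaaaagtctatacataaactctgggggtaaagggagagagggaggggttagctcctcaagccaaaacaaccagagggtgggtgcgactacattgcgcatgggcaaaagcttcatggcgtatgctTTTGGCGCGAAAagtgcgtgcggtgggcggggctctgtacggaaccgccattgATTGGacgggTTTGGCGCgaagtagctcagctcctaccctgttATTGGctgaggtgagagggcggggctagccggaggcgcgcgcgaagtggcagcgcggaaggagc

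The window of Mki67 held 3 NF-Y boxes and 2 CHR matches, and that of Bub1b held 1 NF-Y box and 2 CHR matches. Kif23 had 1 of each, and Ube2c had 6 NF-Y boxes and 1 CHR match. Mcm6 had 3 E2F matches, 2 NF-Y boxes and no CHR match. A match is a description of letters and not a bound site.

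Scaled by length, Pcna stood highest and most mitotic genes were near the bottom in all 3 groups. Of the 36 genes, 16 had a group mean under 1 CPM per kilobase of exon in every group, among them Cdk1, the kinase that starts mitosis, and Ccnb1, its cyclin partner. Another 12 were at or above 1 CPM per kilobase in every group, and 8 crossed that level between groups. In LPS Fth1-high cells the mean was 27.8 CPM per kilobase for Pcna, 12.8 for Bub1b, 10.5 for Mcm3 and 10.3 for Mki67. In the same cells it was 1.25 CPM per kilobase for Top2a, 0.305 for Cdk1 and 0.157 for Ccnb1.

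**Figure D1:**
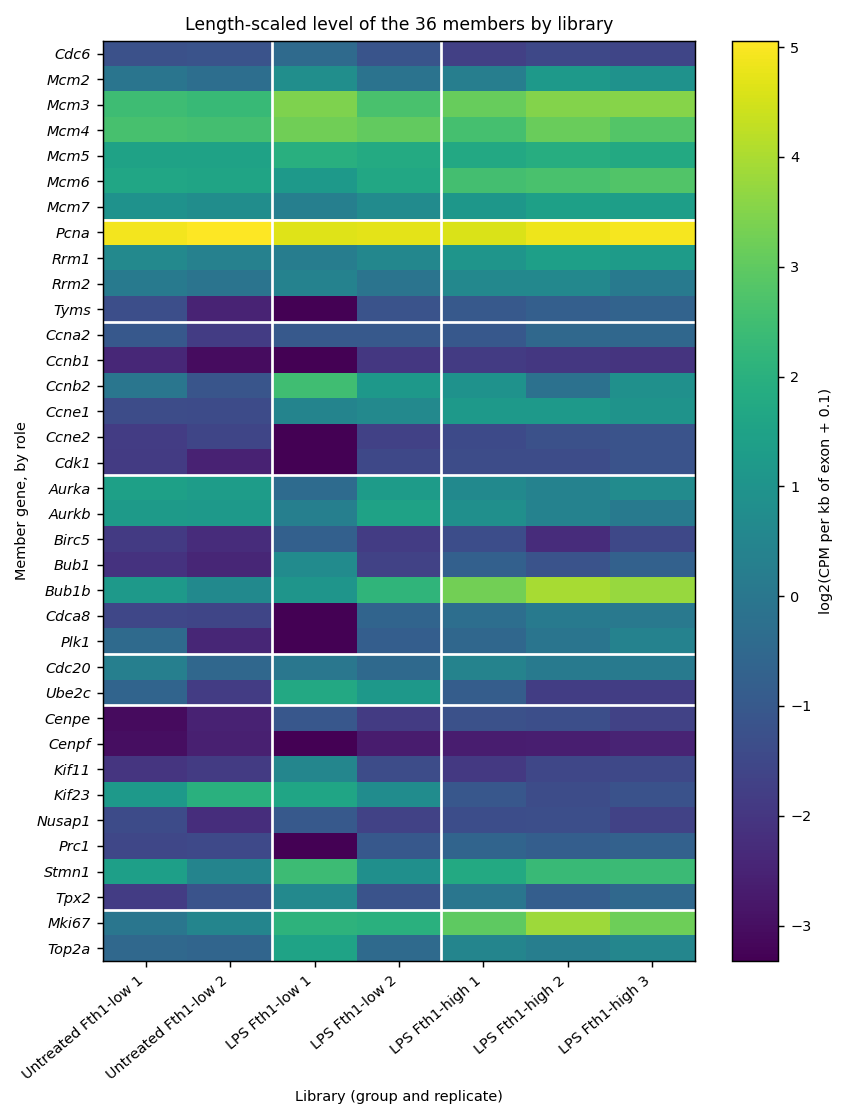
Length-scaled level of each of the 36 genes (rows, grouped by role) in each of the 7 libraries (columns), coloured as log2 of CPM per kilobase of exon plus 0.1. Pcna is bright in every library, Bub1b and Mki67 brighten in the 3 LPS Fth1-high libraries, Kif23 darkens there, and the darkest cells of LPS Fth1-low replicate 1 are genes with no count.

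The comparison of LPS Fth1-high with LPS Fth1-low cells asks how the 2 gates differ after LPS. In it 3 of the 36 genes were higher (8.33%) and 2 were lower (5.56%) by edgeR's quasi-likelihood test at a Benjamini-Hochberg adjusted p below 0.05. Of all genes tested, 8.25% were called, 3.68% higher and 4.57% lower. The other 31 were not called, and the median log2 change of the 36 was 0.42, against 0.04 over all genes. In 14 genes every Fth1-high library lay above both LPS Fth1-low libraries and in 5 below. Among the 14, Ccne2, Cdk1, Cdca8, Plk1, Cenpf, Tyms and Prc1 had no count in LPS Fth1-low replicate 1. Ccne1 and Cdc20 were under the floor of that library, 5.02 CPM, so the order of these genes is uncertain. The same limit applies wherever that library is compared. The groups also did not overlap in 41.3% of all genes, above in 24.2% and below in 17.1%. LPS Fth1-low against untreated Fth1-low cells asks what LPS did within the low gate. Here 2 genes were higher (5.56%) and none was lower, against 3.62% of all genes called, 2.99% higher and 0.629% lower. At an unadjusted p under 0.05 there were 7 of 36 (19.4%), against 13.4% of all genes. DESeq2 also called none lower. The median log2 change was 0.42, against -0.05 over all genes. The LPS pair lay above the untreated pair in 15 genes and below it in 3, and the groups did not overlap in 39.5% of all genes (16.3% above, 23.2% below). LPS Fth1-high against untreated Fth1-low cells mixes treatment and gate. In that comparison 8 genes were higher (22.2%) and 1 was lower (2.78%), against 24.3% of all genes called, 12.4% higher and 11.9% lower, and the median log2 change was 0.93, against 0.03. The Fth1-high libraries lay above the untreated ones in 21 genes and below in 4, against 58.1% of all genes without overlap (30.3% above, 27.8% below). These comparisons share libraries and are not independent of each other.

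**Figure D2:**
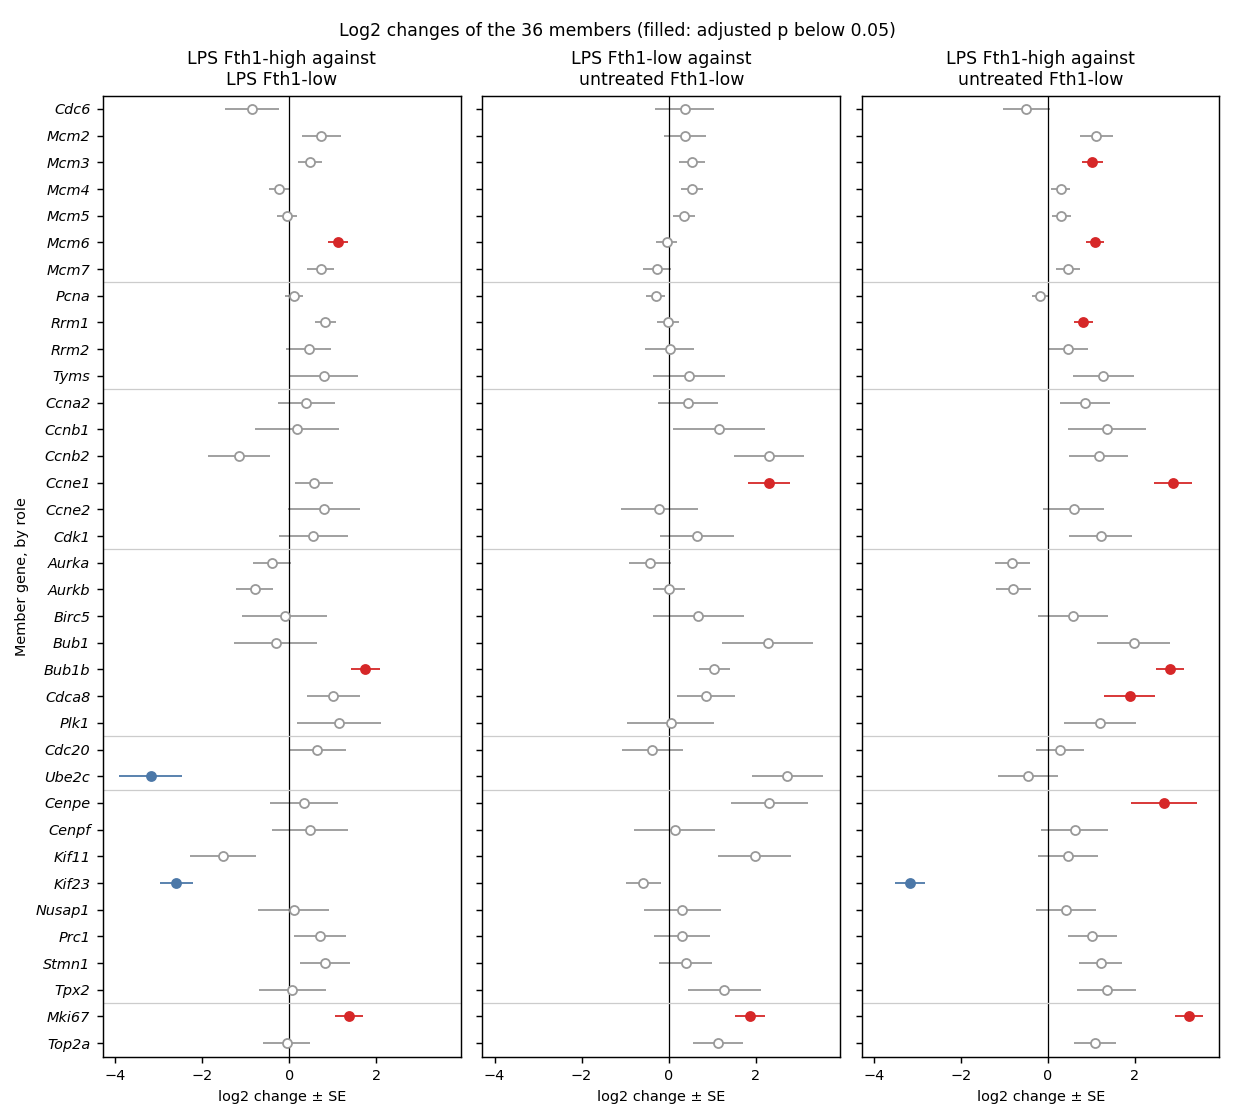
Log2 change with its standard error for each of the 36 genes in the 3 comparisons, with filled points for genes at an adjusted p below 0.05. Most points are open with wide bars, Mki67 is filled to the right of 0 in all 3 comparisons, and Kif23 is filled to the left of 0 in both comparisons with LPS Fth1-high cells.

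Mki67 was the gene called in every comparison. It encodes Ki-67, the nuclear protein that coats mitotic chromosomes and is widely used as a mark of cells in cycle, and lies at chr7:135689784-135716361 on the minus strand (GRCm38, GENCODE vM21). Its level was 8.91 and 13.2 CPM in untreated Fth1-low libraries, 41.9 and 39.0 CPM in the LPS Fth1-low pair, and 78.6, 142 and 91.6 CPM in LPS Fth1-high libraries. The groups did not overlap and stood in that order, with means of 11.1 ± 3.06 (SD, n = 2), 40.4 ± 1.99 (SD, n = 2) and 103.9 ± 33.2 CPM (SD, n = 3). Mki67 was 3.64-fold higher in LPS Fth1-low than in untreated cells (log2 1.87 ± 0.34 SE, edgeR adjusted p = 0.016). It was a further 2.60-fold higher in LPS Fth1-high cells (log2 1.38 ± 0.31, edgeR adjusted p = 0.026), and 9.47-fold higher in them than in untreated cells (log2 3.24 ± 0.32, edgeR adjusted p = 9.9e-05). The last call held in 18 of 18 alternatives. The rise within the low gate was not called with either untreated library removed (edgeR adjusted p = 0.15 without the first, 0.05 without the second) or with either LPS Fth1-low library removed (0.062 and 0.097 in the same order). The difference between the gates was not called on removing LPS Fth1-low replicate 1 (0.1) or 2 (0.16), nor on removing LPS Fth1-high replicate 2 (0.067). Voom with sample quality weights called neither of these differences (0.07 within the low gate, 0.053 between the gates).

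Top2a, the topoisomerase that untangles replicated chromosomes and is often read together with Mki67, was not called by edgeR over the 7 libraries. Its level was 5.58 and 5.03 CPM untreated, 25.1 and 5.86 CPM in LPS Fth1-low and 11.7, 9.96 and 12.1 CPM in LPS Fth1-high libraries. The value of 25.1 CPM rests on 15 counts in the shallowest library, and the LPS groups overlapped. All 3 LPS Fth1-high libraries lay above the untreated pair. Top2a was called higher in LPS Fth1-high than in untreated cells by limma-voom, with and without sample quality weights, in the fit of only those 2 groups and without either LPS Fth1-low library. It was called higher in LPS Fth1-low than in untreated cells when LPS Fth1-low replicate 2 was left out, which leaves only the shallow library in that group.

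Among the licensing and helicase genes, Mcm6 was called higher in LPS Fth1-high cells. The MCM proteins form the ring-shaped replicative helicase, and Cdc6 helps to load it. Mcm6 (chr1:128331590-128359664, minus strand) was 14.1 and 13.5 CPM untreated, 10.0 and 14.6 CPM in LPS Fth1-low and 26.8, 28.7 and 31.8 CPM in LPS Fth1-high libraries. The Fth1-high libraries lay above all 4 Fth1-low libraries, whose groups overlapped. The level was 2.16-fold higher than in LPS Fth1-low cells (log2 1.11 ± 0.23, edgeR adjusted p = 0.017) and 2.11-fold higher than in untreated cells (log2 1.07 ± 0.21, edgeR adjusted p = 0.0045). The first call was lost without LPS Fth1-high replicate 2 (0.067) or 3 (0.076) and the second without untreated replicate 2 (0.052). With libraries thinned to the depth of the shallowest neither was called, at log2 changes of 1.35 (adjusted p = 0.073) and 0.64 (adjusted p = 0.32).

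Mcm3 was 20.2 and 18.6 CPM untreated, 40.2 and 23.0 CPM in LPS Fth1-low and 32.2, 42.1 and 43.6 CPM in LPS Fth1-high libraries. Both LPS groups lay above the untreated pair and overlapped each other. Mcm3 was called only between LPS Fth1-high and untreated cells (2.03-fold, log2 1.02 ± 0.25, edgeR adjusted p = 0.015). That call was lost without untreated replicate 1 (0.08), untreated replicate 2 (0.1), LPS Fth1-high replicate 2 (0.053) or LPS Fth1-high replicate 3 (0.056), and with thinned libraries (0.18). Mcm4 was 20.7 to 33.5 CPM, Mcm5 10.8 to 15.1 CPM, Mcm7 5.02 to 11.5 CPM, Mcm2 4.94 to 15.4 CPM and Cdc6 1.06 to 3.35 CPM over all libraries, and edgeR called none of them. Mcm2 came nearest, at a log2 difference of 1.11 ± 0.39 between LPS Fth1-high and untreated cells (edgeR adjusted p = 0.065), and it was called higher there in 7 of 17 alternatives, among them limma-voom (0.047) and the removal of either LPS Fth1-low library (0.045 each) or of LPS Fth1-high replicate 1 (0.031). By edgeR 2 of the 7 licensing and helicase genes were called higher in LPS Fth1-high against untreated cells, where 12.4% of all genes were. Against LPS Fth1-low cells 1 of 7 was called higher, where 3.68% of all genes were. The exons of Mcm7 also hold Mir25 and Mir93 on the same strand.

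Of the 4 DNA synthesis genes, 1 was called in any comparison. It was higher in LPS Fth1-high against untreated cells, where 12.4% of all genes were. Pcna, the clamp that holds DNA polymerase on its template, was 72.0 and 79.6 CPM untreated, 60.3 and 62.6 CPM in LPS Fth1-low and 56.9, 69.3 and 73.8 CPM in LPS Fth1-high libraries. The LPS Fth1-high libraries overlapped both other groups, and its log2 difference was 0.11 ± 0.20 between the LPS groups (edgeR adjusted p = 0.81). Rrm1, the large subunit of ribonucleotide reductase, was 15.7 and 12.9 CPM untreated, 11.7 and 15.0 CPM in LPS Fth1-low and 21.8, 27.9 and 25.7 CPM in LPS Fth1-high libraries. Its Fth1-high libraries lay above the other 4. Rrm1 rose 1.75-fold in LPS Fth1-high against untreated cells (log2 0.81 ± 0.22, edgeR adjusted p = 0.023), and its difference of 0.83 ± 0.24 on the log2 scale between the LPS groups was not called (0.072). The rise was not called by DESeq2 (0.05) or without untreated replicate 1 (0.073), untreated replicate 2 (0.18), LPS Fth1-high replicate 2 (0.11) or LPS Fth1-high replicate 3 (0.084), nor with thinned libraries (0.33). Rrm2, the small subunit of the same enzyme, was 2.31 to 3.90 CPM and Tyms, thymidylate synthase, 0 to 3.29 CPM, and neither was called.

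Among the 6 cyclin and Cdk genes, Ccne1 was the gene called. Cyclin E1 partners Cdk2 at the entry into S phase. Ccne1 (chr7:38097984-38107534, minus strand) was 0.750 and 0.746 CPM untreated, 3.35 and 3.86 CPM in LPS Fth1-low and 5.91, 5.73 and 5.02 CPM in LPS Fth1-high libraries. The 3 groups did not overlap, though the value of 3.35 CPM is 2 counts and lies under the floor of that library. Ccne1 rose 7.36-fold in LPS Fth1-high against untreated cells (log2 2.88 ± 0.44, edgeR adjusted p = 0.0012), a call that held in 17 of 17 alternatives with a value. In LPS Fth1-low against untreated cells it was 4.95-fold higher (log2 2.31 ± 0.49, edgeR adjusted p = 0.032). That call was lost in 9 of 17 alternatives, including the fit of those 2 groups alone (0.31). Removing untreated replicates 1 or 2 gave adjusted p of 0.2 or 0.18, removing LPS Fth1-low replicate 2 gave 0.3, and removing LPS Fth1-high replicates 1, 2 or 3 gave 0.067, 0.084 or 0.1. The levels in the LPS groups were not called different (log2 0.57 ± 0.43, edgeR adjusted p = 0.5).

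Cdk1 was 0.875 and 0.373 CPM untreated, 0 and 1.23 CPM in LPS Fth1-low and 1.39, 1.42 and 1.70 CPM in LPS Fth1-high libraries. Ccnb1 was 0.375 and 0.0932 CPM untreated, 0 and 0.669 CPM in LPS Fth1-low and 0.730, 0.650 and 0.601 CPM in LPS Fth1-high libraries. For both genes the Fth1-high libraries lay above the untreated ones, at levels that neither comparison called. Ccna2, the cyclin of S phase and G2, was 0.746 to 2.48 CPM, Ccnb2 0.559 to 8.37 CPM and Ccne2 0 to 1.20 CPM. Cdk1, Ccnb1 and Ccne2 had no count in LPS Fth1-low replicate 1, which allows a level of up to 5.02 CPM in that library.

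The mitotic kinases and checkpoint genes were led by Bub1b, which encodes BubR1, the checkpoint protein that holds back the anaphase-promoting complex until chromosomes are attached to the spindle. Bub1b (chr2:118598211-118641591, plus strand) was 9.20 and 6.34 CPM untreated, 8.37 and 18.8 CPM in LPS Fth1-low and 40.7, 65.6 and 58.2 CPM in LPS Fth1-high libraries. The Fth1-high libraries lay above the rest, and the other groups overlapped. Group means were 7.77 ± 2.03 (SD, n = 2), 13.6 ± 7.36 (SD, n = 2) and 54.8 ± 12.8 CPM (SD, n = 3). Bub1b was 3.37-fold higher in LPS Fth1-high than in LPS Fth1-low cells (log2 1.75 ± 0.34, edgeR adjusted p = 0.012) and 6.98-fold higher than in untreated cells (log2 2.80 ± 0.32, edgeR adjusted p = 0.00025). Both calls held in 18 of 18 alternatives. The first change was 2.72 on the log2 scale without LPS Fth1-low replicate 2, where the group's single remaining library has 5 counts of Bub1b. Between the low gates the log2 difference was 1.05 ± 0.35 and was not called (edgeR adjusted p = 0.21).

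Its partner kinase Bub1 was 0.373 to 6.70 CPM and was not called by edgeR over the 7 libraries. Cdca8, or borealin, a subunit of the chromosomal passenger complex that corrects faulty attachments, was 1.25 and 1.21 CPM untreated, 0 and 2.83 CPM in LPS Fth1-low and 3.72, 5.04 and 4.84 CPM in LPS Fth1-high libraries. The Fth1-high libraries lay above the untreated pair and LPS Fth1-low replicate 2. No count in LPS Fth1-low replicate 1 allows a level of up to 5.02 CPM there. Cdca8 rose 3.67-fold in LPS Fth1-high against untreated cells (log2 1.88 ± 0.58, edgeR adjusted p = 0.043). The call was lost with DESeq2 (0.057) and without any of the untreated or LPS Fth1-high libraries (adjusted p 0.057 to 0.18), and the gene overlaps 9930104L06Rik on the opposite strand. Aurkb and Birc5, which encode the kinase and another subunit of the same complex, were 2.90 to 7.97 and 0.366 to 1.67 CPM. Aurka was 1.67 to 6.58 CPM and Plk1 0 to 2.65 CPM. Bub1b and Cdca8 were the 2 of these 7 genes that edgeR called. Both were higher in LPS Fth1-high against untreated cells, where 12.4% of all genes were. Bub1b was also higher between the LPS groups, where 3.68% of all genes were. Aurka and Aurkb were lower in LPS Fth1-high than in untreated cells by limma-voom, with and without sample quality weights, and Bub1 was higher in the fit of only those 2 groups and without either LPS Fth1-low library.

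Of the anaphase-promoting complex genes, Ube2c was highest in LPS Fth1-low cells. It encodes the E2 enzyme that works with the complex, and Cdc20 is one of its activators. Ube2c (chr2:164769898-164778822, plus strand) was 1.42 and 0.466 CPM untreated, 8.37 and 5.45 CPM in LPS Fth1-low and 1.19, 0.488 and 0.495 CPM in LPS Fth1-high libraries. The LPS Fth1-low pair lay above all other libraries, with 5 counts in the shallow one, and the other groups overlapped. Ube2c was 9.07-fold lower in LPS Fth1-high than in LPS Fth1-low cells (log2 -3.18 ± 0.72, edgeR adjusted p = 0.026). It depended on 4 libraries: the adjusted p was 0.066 or 0.093 on removing the first or second LPS Fth1-low library, and 0.079 or 0.1 on removing LPS Fth1-high replicate 2 or 3. The log2 difference of 2.73 ± 0.81 between LPS Fth1-low and untreated cells was not called by edgeR (adjusted p = 0.14) and was called by DESeq2 (adjusted p = 0.044). Its exons overlap those of Tnnc2 on the opposite strand over 592 bases. Cdc20 was 1.12 to 2.32 CPM and was not called.

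Spindle, kinetochore and cytokinesis genes held the decrease with the smallest adjusted p. Kif23 encodes MKLP1, the motor protein of centralspindlin, which bundles the microtubules of the midzone so that the daughter cells can part. Kif23 (chr9:61915905-61946774, minus strand) was 17.0 and 30.7 CPM untreated, 23.4 and 12.4 CPM in LPS Fth1-low and 3.05, 2.23 and 2.62 CPM in LPS Fth1-high libraries. The Fth1-high libraries lay below the rest, and the low gates overlapped. Means were 23.8 ± 9.67 (SD, n = 2), 17.9 ± 7.77 (SD, n = 2) and 2.63 ± 0.409 CPM (SD, n = 3). Kif23 was 6.05-fold lower in LPS Fth1-high than in LPS Fth1-low cells (log2 -2.60 ± 0.38, edgeR adjusted p = 0.0033) and 9.04-fold lower than in untreated cells (log2 -3.18 ± 0.35, edgeR adjusted p = 0.00017). Both calls held in 18 of 18 alternatives. The log2 difference between the low gates was -0.58 ± 0.41 and was not called (edgeR adjusted p = 0.63).

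Cenpe, the kinetochore motor, went the other way. It was 0.167 and 0.653 CPM untreated, 3.35 and 1.49 CPM in LPS Fth1-low and 2.79, 2.64 and 1.84 CPM in LPS Fth1-high libraries. All LPS libraries lay above the untreated pair. Cenpe rose 6.33-fold in LPS Fth1-high against untreated cells (log2 2.66 ± 0.76, edgeR adjusted p = 0.031). The call was lost without untreated replicate 1, which gave a log2 change of 1.87 (adjusted p = 0.21), and without LPS Fth1-high replicates 1 (0.062), 2 (0.086) or 3 (0.066). The other 6 were not called by edgeR: Stmn1, a tubulin-binding protein, at 2.42 to 10.0 CPM, the motor Kif11 at 1.08 to 10.0 CPM, Tpx2 at 0.833 to 6.70 CPM, Prc1 at 0 to 4.58 CPM, Nusap1 at 0.466 to 1.67 CPM and Cenpf at 0 to 1.20 CPM. With limma-voom Stmn1 was called higher in LPS Fth1-high against untreated cells, and with sample quality weights Prc1 was too. Stmn1 and Top2a have a small overlap with a gene model on the same strand.

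**Figure D3:**
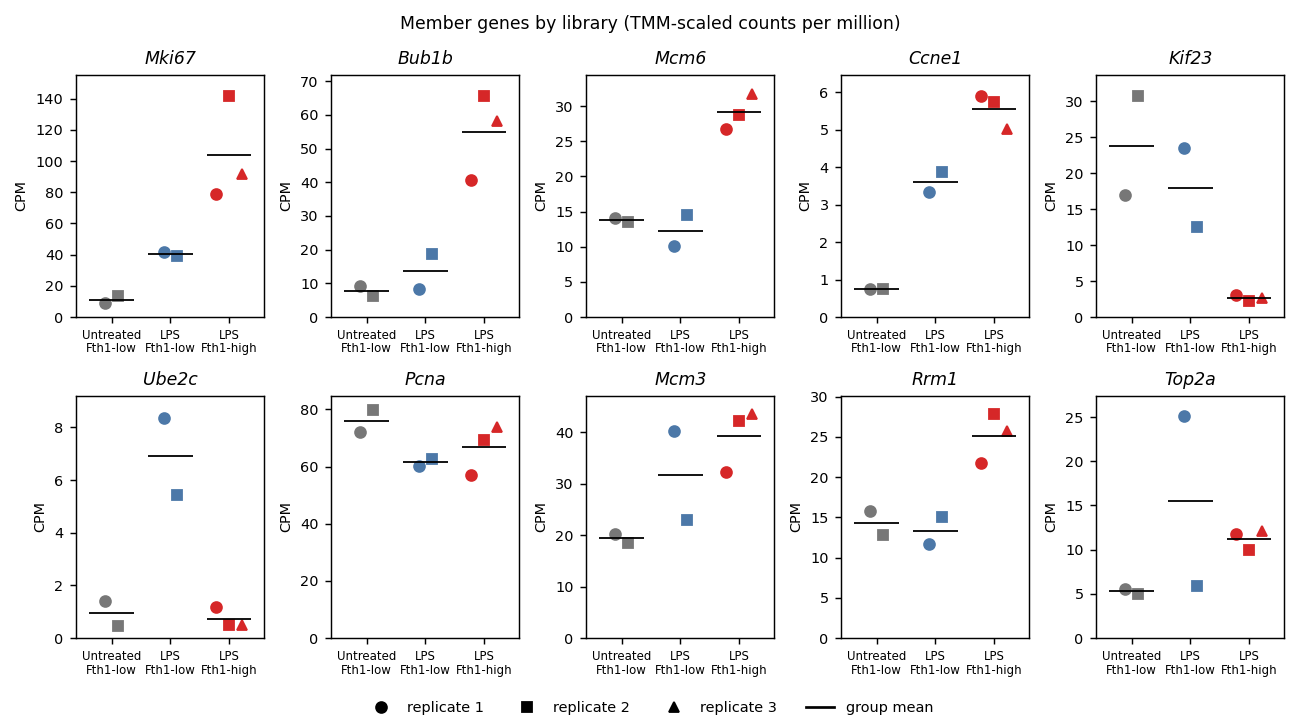
CPM of 10 of the genes in each library, with points for libraries, marker shapes for replicate numbers and bars for group means, each panel on its own linear axis from 0. Mki67 steps up from untreated to LPS Fth1-low to LPS Fth1-high cells, Bub1b, Mcm6 and Rrm1 are high in the Fth1-high libraries, Kif23 is low there, Ube2c peaks in LPS Fth1-low cells, and Pcna of the Fth1-high libraries overlaps both other groups.

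A RefSeq promoter window was matched for 30 of the 36 genes, and Mcm7 and Prc1 had 2 windows each, counted where either held a match. Of these, 25 (83.3%) held an NF-Y box, against 43.0% of the 10407 tested genes with a window. A CHR match was found in 17 (56.7%, against 16.6%) and an E2F match in 7 (23.3%, against 7.27%). Both an NF-Y box and a CHR match were found in 17 (56.7%, against 8.10%). Kif23 and Ube2c, called lower in LPS Fth1-high than in LPS Fth1-low cells, held both. Of the 8 genes called higher against untreated cells, Mki67, Bub1b and Cdca8 held both, Mcm3 and Mcm6 held NF-Y boxes and E2F matches without a CHR match, Rrm1 and Cenpe held NF-Y boxes alone, and Ccne1 held none of the 3. Cdk1, which was not called, held 3 NF-Y boxes, 2 CHR matches and 1 E2F match. No relation between matches and direction of change was tested. Ccna2, Ccne2, Aurkb, Tpx2, Mcm4 and Stmn1 had no entry in the promoter table.

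**Figure D4:**
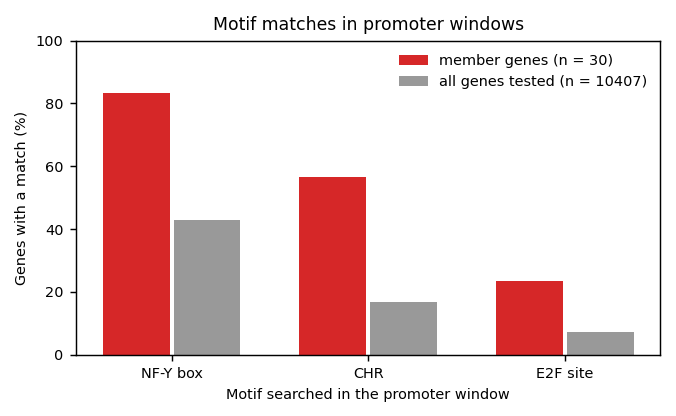
Percentage of genes whose promoter window holds a match to the NF-Y box, the CHR or an E2F site, for the 30 matched genes of the set and for background genes. The bars of the set are the taller ones for each motif.

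Other genes of the same processes were read from lists written from general knowledge. Of 42 further replication genes, 1 was higher and 0 lower in LPS Fth1-high against LPS Fth1-low cells, against 3.68% and 4.57% of all genes, and 5 (11.9%) were at an unadjusted p under 0.05, against 21.6% of all genes. Their median log2 change was 0.40. The one called was Dnmt1, the methyltransferase that copies DNA methylation to the new strand. It was 38.7 and 55.8 CPM untreated, 56.9 and 59.1 CPM in LPS Fth1-low and 152, 146 and 140 CPM in LPS Fth1-high libraries, so the Fth1-high libraries lay above the rest (log2 1.33 ± 0.22 against LPS Fth1-low, edgeR adjusted p = 0.0069). In LPS Fth1-low against untreated cells 0 were called by edgeR or by DESeq2, with 2 (4.76%) at an unadjusted p under 0.05, against 13.4% of all genes. In LPS Fth1-high against untreated cells 9 were higher (21.4%) and 0 lower, against 12.4% and 11.9% of all genes, and DESeq2 called 5 higher and 0 lower. Their median log2 change was 0.65, and 17 (40.5%) were at an unadjusted p under 0.05, against 36.1% of all genes. Among the 9 were Pola2, a subunit of DNA polymerase alpha, at log2 1.23 (edgeR adjusted p = 0.0021), and Rfc5, of the clamp loader, at log2 1.18 (0.0072), the latter not called without untreated replicate 2 (0.076). The DNA ligase Lig1 was also among them at log2 1.50 (0.012), and its call was lost without untreated replicate 1 (0.062), untreated replicate 2 (0.084) or LPS Fth1-high replicate 2 (0.057).

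Of 59 further mitosis genes, 53 were tested, and 2 were higher (3.77%) and 1 lower (1.89%) in LPS Fth1-high against LPS Fth1-low cells, near or under the shares over all genes (3.68% and 4.57%), with a median log2 change of 0.16. The gene that fell was Racgap1, which encodes the partner of Kif23 in centralspindlin. Racgap1 (chr15:99620496-99651656, minus strand) was 72.8 and 74.8 CPM untreated, 28.5 and 26.7 CPM in LPS Fth1-low and 5.64, 3.82 and 5.13 CPM in LPS Fth1-high libraries. The groups did not overlap and stepped down in that order. It was lower in LPS Fth1-low than in untreated cells (log2 -1.44 ± 0.24, edgeR adjusted p = 0.011) and lower again in LPS Fth1-high cells (log2 -2.49 ± 0.22, edgeR adjusted p = 0.00032). The first of these calls failed on removing untreated replicates 1 (0.068) or 2 (0.083), or the second LPS Fth1-low library (0.068).

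The mitosis genes that rose were Ncapg2, a subunit of condensin II, and Espl1, the separase that cuts cohesin at anaphase. Ncapg2 was 5.04 and 8.39 CPM untreated, 16.7 and 24.5 CPM in LPS Fth1-low and 65.3, 67.1 and 72.3 CPM in LPS Fth1-high libraries. Espl1 was 18.2 and 18.6 CPM untreated, 33.5 and 32.5 CPM in LPS Fth1-low and 81.2, 82.8 and 86.5 CPM in LPS Fth1-high libraries. For both, the groups did not overlap and stepped up in that order, as they did for Mki67. The log2 changes between the LPS groups were 1.61 ± 0.27 for Ncapg2 (edgeR adjusted p = 0.0067) and 1.35 ± 0.19 for Espl1 (edgeR adjusted p = 0.0027). Within the low gate Ncapg2 rose by a log2 change of 1.77 ± 0.29 (edgeR adjusted p = 0.0097), a call that failed on removing untreated replicate 1 (0.087) or the second LPS Fth1-low library (0.19). With thinned libraries that change was 0.88 (adjusted p = 0.38). Espl1 missed the threshold there (log2 0.84 ± 0.20, edgeR adjusted p = 0.054). Over the 53 genes, 1 was higher (1.89%) and 1 lower (1.89%) in LPS Fth1-low against untreated cells, against 2.99% and 0.629% of all genes. Their median log2 change there was 0.19. In LPS Fth1-high against untreated cells 7 were higher (13.2%) and 4 lower (7.55%), against 12.4% and 11.9% of all genes, with a median of 0.52.

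Regulators of the cycle, 50 of 52 tested, were called in both directions: 0 higher and 4 lower between the LPS groups, 2 higher and 0 lower within the low gate, and 5 higher and 7 lower in LPS Fth1-high against untreated cells. The last were 10% and 14% of the list, close to the 12.4% and 11.9% of all genes. The 4 lower between the LPS groups were 8%, against 4.57%, and the 2 higher within the low gate were 4%, against 2.99%. DESeq2 called 0 higher and 5 lower, 3 higher and 1 lower, and 5 higher and 6 lower. The medians were 0.02, 0.02 and 0.13 on the log2 scale. Cyclin D genes, which act in G1, differed from one another. Ccnd3 was 275 and 312 CPM untreated, 147 and 171 CPM in LPS Fth1-low and 43.5, 37.3 and 37.6 CPM in LPS Fth1-high libraries. It stepped down without overlap and was lower in LPS Fth1-high than in LPS Fth1-low cells (log2 -2.02 ± 0.19, edgeR adjusted p = 0.00039). Ccnd2 was 13.1 and 9.51 CPM untreated, 83.7 and 51.1 CPM in LPS Fth1-low and 25.7, 18.5 and 22.9 CPM in LPS Fth1-high libraries. It was highest in the LPS Fth1-low pair, above untreated cells (log2 2.49 ± 0.31, edgeR adjusted p = 0.0019) and above LPS Fth1-high cells (log2 -1.51 ± 0.27 for high against low, edgeR adjusted p = 0.0087). Both genes overlap another gene on the opposite strand.

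The activator E2F genes also went apart. E2f2 was 178 and 195 CPM untreated, 112 and 101 CPM in LPS Fth1-low and 30.7, 15.4 and 16.8 CPM in LPS Fth1-high libraries (log2 -2.34 ± 0.30 between the LPS groups, edgeR adjusted p = 0.0018). E2f1 was 12.8 and 13.2 CPM untreated, 26.8 and 18.3 CPM in LPS Fth1-low and 30.5, 39.5 and 40.8 CPM in LPS Fth1-high libraries. Neither gene overlapped between groups. E2f1 rose in LPS Fth1-high against untreated cells (log2 1.51 ± 0.23, edgeR adjusted p = 0.0011) and was not called between the LPS groups (0.075). Cdkn2d, an inhibitor of the cyclin D kinases, was 81.0 and 63.0 CPM untreated, 43.5 and 61.3 CPM in LPS Fth1-low and 7.37, 8.49 and 11.1 CPM in LPS Fth1-high libraries, lowest in every Fth1-high library (log2 -2.60 ± 0.25 between the LPS groups, edgeR adjusted p = 4e-04). Gadd45b, a stress-induced gene linked to growth arrest, was 46.2 and 76.5 CPM untreated, 183 and 208 CPM in LPS Fth1-low and 171, 138 and 154 CPM in LPS Fth1-high libraries. Both LPS groups lay above the untreated pair. Its rise within the low gate (log2 1.68 ± 0.28, edgeR adjusted p = 0.0092) failed on removing untreated replicate 1 (0.077) or the second LPS Fth1-low library (0.056).

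**Figure D5:**
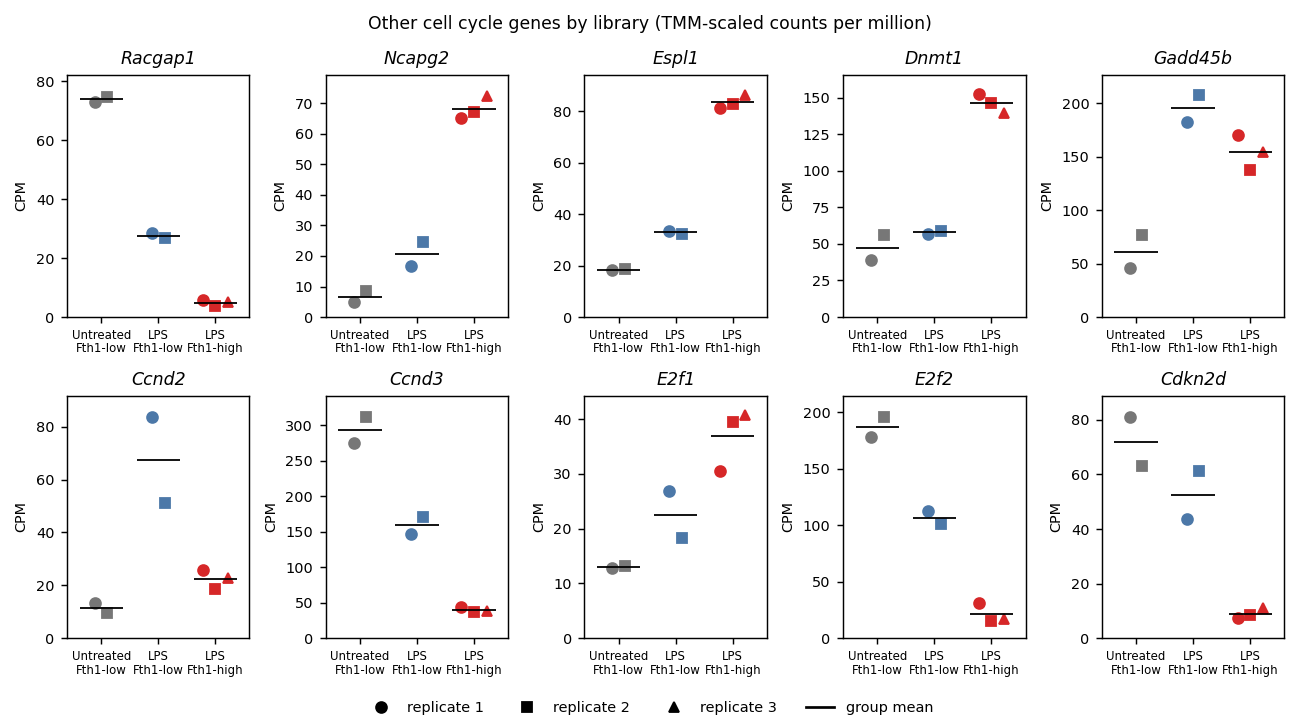
CPM of 10 further cell cycle genes in each library, with points for libraries, marker shapes for replicate numbers and bars for group means, each panel on its own linear axis from 0. Racgap1, Ccnd3, E2f2 and Cdkn2d are lowest in LPS Fth1-high cells, Ncapg2, Espl1, Dnmt1 and E2f1 are highest there, and Ccnd2 peaks in LPS Fth1-low cells.

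Markers of other cells moved beside these genes. The 15 myeloid progenitor genes summed to 275 and 281 CPM untreated, 258 and 271 CPM in LPS Fth1-low and 137 to 201 CPM in LPS Fth1-high libraries. Cd93 was the highest of them in every library, at 106 to 198 CPM. Mpo and Elane were each 0 to 3.35 CPM, Ctsg 0 to 1.025 CPM and Ms4a3 0 to 0.206 CPM. Of the 12 tested genes of this list, 0 were higher and 3 lower (25%) between the LPS groups, against 3.68% and 4.57% of all genes. The 3 were Flt3, the receptor of progenitors and dendritic cells, Prtn3, a granule protease, and Cebpe, whose call was lost in 11 alternatives. Flt3 was 33.9 and 38.1 CPM untreated, 13.4 and 38.9 CPM in LPS Fth1-low and 0.796, 0.488 and 0.813 CPM in LPS Fth1-high libraries (log2 -5.43, edgeR adjusted p = 0.00014). Prtn3 was 2.25 and 1.68 CPM untreated, 43.5 and 14.1 CPM in LPS Fth1-low and 1.00, 1.18 and 0.954 CPM in LPS Fth1-high libraries, so that, like Ube2c and Ccnd2, it was highest in the LPS Fth1-low pair. In LPS Fth1-low against untreated cells Prtn3 and Gfi1 were higher (16.7%) and 0 lower, against 2.99% and 0.629% of all genes. In LPS Fth1-high against untreated cells Gfi1 was higher (8.33%) and 3 were lower (25%), against 12.4% and 11.9%. Gfi1 was 0.500 and 0.280 CPM untreated, 5.02 and 5.09 CPM in LPS Fth1-low and 2.72, 7.07 and 3.71 CPM in LPS Fth1-high libraries. The calls within the low gate were lost in 2 of 17 alternatives for Prtn3 and 5 of 17 for Gfi1.

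The sort's own genes were present throughout, with Lyz2 at 6140 to 12500 CPM, Itgam (CD11b) at 750 to 2109 CPM and Ly6c2 at 562 to 2980 CPM. The 10 monocyte genes summed to 13000 to 20100 CPM, with Lyz2 the highest of them, and moved in both directions. Between the LPS groups Cd68 and Adgre1 were higher (20%) and Ccr2 and Spi1 lower (20%), against 3.68% and 4.57% of all genes. In LPS Fth1-high against untreated cells 4 of the 10 were higher (40%) and 3 lower (30%), against 12.4% and 11.9% of all genes. Ccr2, the chemokine receptor of classical monocytes, was 1390 and 1252 CPM untreated, 894 and 1545 CPM in LPS Fth1-low and 361, 148 and 170 CPM in LPS Fth1-high libraries. Of the 10 genes of alveolar macrophages, a resident type that can divide, 9 were tested. Between the LPS groups 0 were higher and 2 lower (22.2%), against 3.68% and 4.57% of all genes. The 10 summed to 2020 and 1840 CPM untreated, 3510 and 6150 CPM in LPS Fth1-low and 604, 2030 and 982 CPM in LPS Fth1-high libraries. Chil3 made up most of that sum in the LPS Fth1-low pair (3189 and 5805 CPM). Ear2 was 447 and 257 CPM untreated and 109 and 89.0 CPM in that pair, and Pparg 35.5 and 40.2 CPM untreated and 3.35 and 13.1 CPM in that pair. Others rose: within the low gate 6 of the 9 had a positive log2 change, and 0 were called. Itgax was 93.2 and 117 CPM untreated and 194 and 228 CPM in that pair. Siglecf was 0.732 to 5.02 CPM over all libraries. In LPS Fth1-high against untreated cells 1 was higher (11.1%) and 2 lower (22.2%), against 12.4% and 11.9% of all genes. The marker genes named here were picked after their values were seen. The 10 dendritic cell genes summed to 187 and 206 CPM untreated, 124 and 115 CPM in LPS Fth1-low and 16.9 to 28 CPM in LPS Fth1-high libraries. Between the LPS groups 0 of 10 were higher and 4 lower (40%), against 3.68% and 4.57% of all genes. Flt3 is in this list and in that of the progenitor genes, and counts in both. The 10 neutrophil genes summed to 375 to 449 CPM in untreated and LPS Fth1-high libraries and to 656 and 698 CPM in LPS Fth1-low libraries. Csf3r was the highest of them in every library, at 272 to 497 CPM, and Ly6g was 0 to 0.0932 CPM. Sums were 30.3 to 63.3 CPM for 10 T and NK cell genes, 20.4 to 137 CPM for 8 B cell genes, 47.3 to 409 CPM for 9 endothelial genes and 5.97 to 127 CPM for 8 fibroblast genes. Between the LPS groups 1 of the 10 T and NK cell genes had a positive log2 change (median -1.43). It was Il7r, at 23.8, 39.0 and 37.1 CPM in LPS Fth1-high libraries. Of the B cell genes, 1 of 8 had a positive change (median -1.04). It was Cd22, at 24.4, 13.5 and 32.8 CPM in LPS Fth1-high libraries. The 10 epithelial genes summed to 830 CPM in untreated replicate 1 and to 5.87 to 139 CPM elsewhere, and 7 erythroid genes to 48.7 CPM in untreated replicate 2 and 1.13 to 7.95 CPM elsewhere. No marker was at 0 in all libraries. Their part in the differences of the cell cycle genes was not tested.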

How the data were processed

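Polyadenylated RNA (25 ng) was made into libraries with a stranded kit and 15 PCR cycles and read as paired 58-base reads, per the labels' protocols. The deposited values are raw counts per gene. Per the submitters' processing notes, DRAGEN, DESeq2 and mm10 were used, with roles not stated. The sources used here give no version, annotation, counted strand or filter, so overlapping genes on opposite strands cannot be told apart. Of 26130 genes, 6880 had no count. The number of unused sample columns was 0.

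The fit used edgeR 4.0.16 in R 4.3.3: filterByExpr (13665 genes tested), TMM scaling and 1 robust quasi-likelihood fit of the 3 groups over 7 libraries (4 residual degrees of freedom, a median of 5.38 prior ones, and a biological coefficient of variation of 0.301). Differences were tested two-sided with Benjamini-Hochberg adjustment over all genes tested, at a threshold of 0.05. The SE was taken as the log2 change divided by √F. CPM uses TMM-scaled library sizes. Alternatives were other scalings and filters, the DESeq2 1.42.0 Wald test, limma-voom (limma 3.58.1) with and without sample quality weights, fits of only 2 groups, the replicate block, ribosomal RNA and mitochondrial genes left out, thinning to equal depth and each library left out. With 1 library left in a group, it was assumed to vary like the others. On simulated data, drawn 1 time per comparison, the fit recovered the sizes of the changes. The share of false calls was above the nominal rate in all 3 comparisons, and 1 draw each cannot rank them. Calls with an adjusted p near the threshold are therefore less certain than it states.

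The members and lists were chosen with earlier results of these data known. Values in every library are given for each member that edgeR called in any comparison over the 7 libraries, and for Top2a, Pcna, Cdk1 and Ccnb1. The remaining members are named because the list is fixed, and are given as ranges over all libraries. In the other lists only some of the called genes are named, and not all of those have values in every library. Positions are 1-based, from GENCODE vM21 on GRCm38 (mm10). Promoters are RefSeq, GRCm38.p6.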

Additional observations from a re-analysis of the deposited data

How the results depend on the processing

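Each of the 62 gene results kept its direction in every alternative that gave it a value, 17 or 18 each (0 reversed), and rescaling moved the median over all genes by at most 0.023 on the log2 scale. The number of the 36 genes called, 5 between the LPS groups, 2 within the low gate and 9 for LPS Fth1-high against untreated cells, depended more on the choices. Thinning all libraries to equal depth left 8 of the 36 to test and gave 3, 1 and 3. Voom with sample quality weights gave 0 within the low gate and 15 for LPS Fth1-high against untreated cells, where limma-voom gave 14. Calls over all genes also rose in that comparison, to 4752 with the weights and 4362 with limma-voom, against 3315 by edgeR. The fit of only 2 groups gave 1 within the low gate. Leaving out each library in turn gave 2 to 5, 0 to 1 and 5 to 12 calls. The low counts came from the removal of untreated replicate 1 (5 for LPS Fth1-high against untreated and 0 within the low gate), untreated replicate 2 (5 and 0), and LPS Fth1-high replicates 2 (5) and 3 (5). Between the LPS groups the removal of LPS Fth1-high replicate 2 gave 2, and that of LPS Fth1-high replicate 3 or either LPS Fth1-low library gave 3. Over all genes, 1128, 495 and 3315 were called. Without LPS Fth1-high replicate 2 or 3 the first became 658 or 681. The second was 812 with DESeq2, 741 with the replicate block, 315 with quality weights, and 197 or 214 without untreated replicate 1 or 2. The third was 1956 with thinning and 1918 or 1921 without untreated replicate 1 or 2. Other than the fewer genes tested under thinning and the fewer libraries under removal, the cause was not tested.

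The labels state no pairing, so the replicate numbers were not taken as pairing. Correlations of deviations from the group means were -0.037 for same-numbered untreated and LPS Fth1-low libraries. They were 0.088 to 0.29 for same-numbered pairs with an LPS Fth1-high library. In a group of 2 libraries the deviations mirror each other, so these values cannot decide whether libraries were paired. With the replicate block, 4, 2 and 8 of the 36 genes were called. Mcm6 between the LPS groups (adjusted p = 0.057), Rrm1 for LPS Fth1-high against untreated cells (0.1) and Ccne1 within the low gate (0.064) were not called there, and Ube2c was called within the low gate (0.02).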
